A study of Bos taurus with 4 samples.

Results

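Clones for proteins of the mitochondrial ribosome and of the mitochondrial protein import machinery were examined on arrays of mouse cDNA clones hybridised with RNA of bovine chromaffin cells. A clone was included when the platform annotation gave it exactly 1 gene symbol and that symbol began with Mrpl, Mrps, Timm or Tomm. The rule took 181 clones of 93 genes, out of 35964 library clones, of which 22380 clones of 11835 genes carried 1 symbol. They comprised 90 clones of 46 large ribosomal subunit genes (Mrpl), 42 clones of 25 small subunit genes (Mrps), 28 clones of 14 Timm genes and 21 clones of 8 Tomm genes. Another 10 spots with such a symbol carried further symbols too and were left out; the Timm23 spot was among them, so the channel protein of the inner membrane translocase has no value here. A single clone represented 37 genes, and 56 genes had 2 to 5 clones, all of which were kept.

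Mitochondria translate their own small genome on a ribosome whose proteins are all encoded in the nucleus, made in the cytosol and imported. Imported precursors bind receptors of the TOM complex and pass through its channel in the outer membrane. TIM complexes then carry them into or across the inner membrane, and small Tim chaperones guard hydrophobic precursors in the space between the membranes. The products of mitochondrial translation are core subunits of the respiratory chain and ATP synthase, on which a secretory cell draws for its ATP.

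Chromaffin cells sit in the adrenal medulla and store and release catecholamines. The treated cells had received 100 ng/ml of the neuropeptide PACAP, which acts through cyclic AMP, in culture for 6 h at 37 C. Controls were chromaffin cells paired by repeat number, with no treatment named in their labels. On each of 4 arrays, 1 for each repeat, Cy5 marked RNA of PACAP-treated cells and Cy3 that of controls, and the dyes were never swapped, so a dye preference of a clone is part of its ratio. The repeats are called biological, and nothing says that their cells came from separate animals, so the p-values measure the spread between these arrays. Neither an age nor a strain of the animals is given. In a culture of mixed cells, fewer cells of a type and less RNA per cell cannot be told apart.

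Values below are log2(PACAP / control), on which 1 is a 2-fold higher PACAP signal, and errors are SD over arrays, with n = 4 unless stated. Of the library clones, 35112 gave signal over 2 background SD in at least 1 channel on 3 of 4 arrays and were tested. Control signal over 2 background SD was present for 80.2, 52.6, 45.3 and 94.6% of library clones on repeats 1 to 4. Repeat 4 stood apart. Over all clones its log ratios correlated with those of the other arrays at r = -0.125 to -0.0023, whereas repeats 1 to 3 correlated with each other at 0.22 to 0.37. The tissue entry of the labels reads brain. Th, which makes the catecholamine precursor L-DOPA, lay at the 99.5th percentile of brightness, and 7 tested chromaffin markers had a median percentile of 98.8, against 59.9 for 6 brain markers, 53.8 for 7 adrenal cortex markers and 95.3 for 6 fibroblast markers. Of the chromaffin markers, Slc18a1 lay at the 2.05th percentile, Scg2 at the 68.2nd and the others between 93.4 and 99.7. Dbh and Pnmt, further defining chromaffin enzymes, were not among the clones tested. In the chromaffin list 4 genes lay above 0 and 3 below. Scg2 (from a clone titled patched homolog), Penk and Chgb were higher at an unadjusted p under 0.05, while Chga read -0.50 ± 0.14, below 0 on every array, and no gene of the other marker lists had such a p.

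The ribosome and import clones were of middling brightness. Their median stood at the 52nd percentile of all tested clones (quartiles 32.6 and 70.7), and 7 of 180 exceeded the 90th percentile. Large subunit clones had a median percentile of 53.7, small subunit clones 40.1, Timm clones 50 and Tomm clones 48.9. The cytosolic ribosomal proteins, by contrast, had a median percentile of 94.2 over 191 clones, and the respiratory chain and ATP synthase 68.7 over 182 clones. Brightness reflects clone and cross-species match as well as RNA level, so these percentiles do not rank transcripts. The brightest gene of each group was Mrps5 (95.9th percentile), Tomm40 (92.7th), Mrpl57 (91.9th) and Timm29 (88.7th). The dimmest were Timm10 (2.04th percentile), Mrps36 (3.01st), Mrpl33 (3.92nd) and Tomm6 (38.1st). Control intensity of the Mrps36 clone on repeat 3 was 1, the floor set on intensities, which lowers its rank.

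Median PACAP signal of these clones was 452, 262, 108 and 244 on repeats 1 to 4, in linear intensity less local background. Their median control signal was 288, 195, 118 and 571. The PACAP channel thus exceeded 2 background SD for 98.9, 99.4, 98.9 and 95.6% of them. The control channel did so for 81.8, 45.3, 36.5 and 96.7%. Control signal was present on all 4 arrays for 43 clones, on 3 for 49, on 2 for 65, on 1 for 22 and on none for 1, the Timm10 clone. On repeats 2 and 3, then, the denominator of most ratios was not well above background.

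Under global loess, no clone of the mitochondrial ribosome or import machinery passed the adjusted threshold of 0.05 in limma, and none did in the whole library (0% of 35112 clones, lowest adjusted p = 0.454). At an unadjusted p under 0.05, 7 of the 180 tested clones were higher with PACAP (3.89%, against 3.92% of all clones) and 6 were lower (3.33%, against 6.46%). Both shares were near or below those of the library. The split was 10 higher and 4 lower with print-tip loess, against 4.44 and 6.53% of all clones in that fit. With the authors' deposited ratios it was 0 higher and 6 lower, against 1.24 and 11.9%, and that setting alone called any clone: 371 in the library and 1 here, the Mrps2 clone. The 1 untested clone was the second clone of Mrpl30, whose spot had no area.

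In direction, 105 of the 180 clones had a mean above 0 and 75 below. That is 58.3% above, against 48.6% of all clones tested. Their median was 0.086 (quartiles -0.17 and 0.32), and the median of all clones was -0.014. The median of the clones, taken on each array, averaged 0.084 ± 0.11 over the arrays, less than its spread between them. A clone had a median SD of 0.54 over arrays, and of 0.55 over the whole library. Higher on all 4 arrays were 19 clones (10.6%, against 9.59% of all clones) and lower on all 4 were 10 (5.56%, against 8.25%). With each gene represented by its brightest clone, 50 genes lay above 0 and 43 below, with a median of 0.026.

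The direction was that of repeats 1 to 3. The median over the clones was 0.14, 0.14 and 0.15 on those arrays and -0.085 on repeat 4. On repeats 1 to 3, 115 of 179, 104 of 180 and 108 of 179 clones were above 0, whereas on repeat 4 it was 78 of 176. Without repeat 4 the median became 0.15, with 115 of 180 clones above 0. Unadjusted p-values under 0.05 then numbered 13 higher and 9 lower, against 4.87 and 9.8% of all clones, and none passed adjustment (lowest adjusted p of these clones 0.103).

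**Figure D1:**
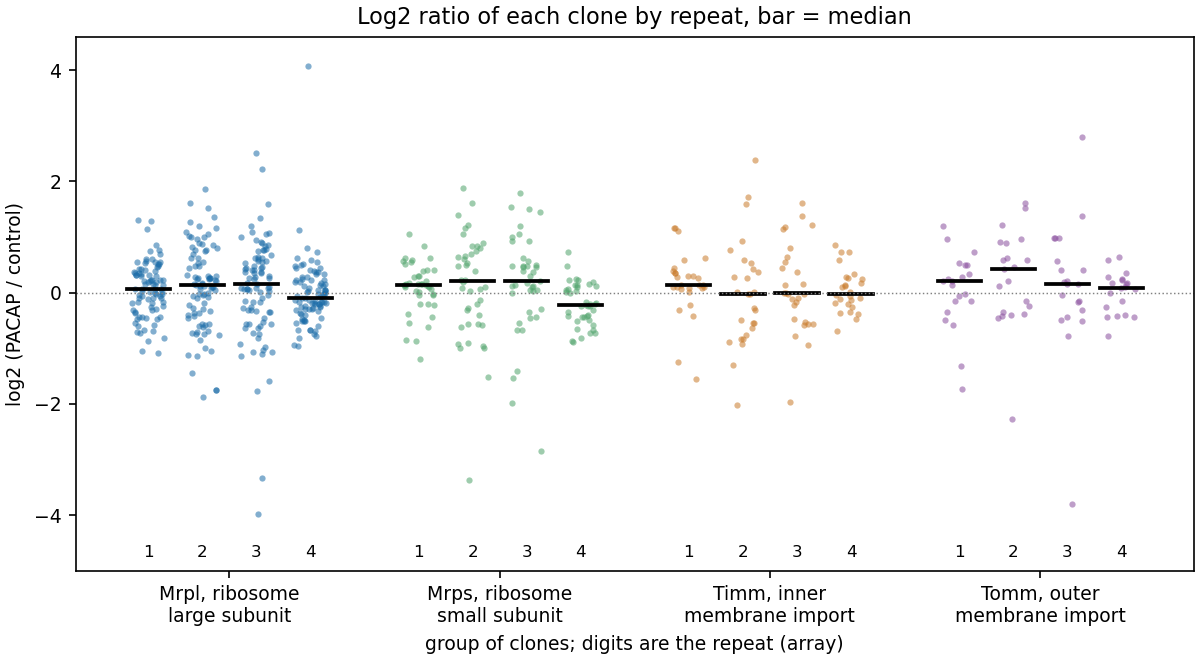
Each point is the log2(PACAP / control) of 1 clone on 1 array, by group of genes and by repeat, and black bars are medians over the clones. Medians of the Mrpl and Mrps clones lie above 0 on repeats 1 to 3 and below 0 on repeat 4; the widest values, such as -3.97 and 4.08, belong to single clones on single arrays.

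Clones with and without full control signal are given apart. The 43 clones with control signal on all 4 arrays had a median of -0.046, with 19 above 0 and 24 below, and 0 higher and 2 lower at an unadjusted p under 0.05, where the library had 3.2 and 8.62%. The other 137 clones had a median of 0.11, with 86 above 0 and 51 below, and 7 higher and 4 lower, where the library had 4.26 and 5.48%. Over all library clones the same division gave -0.06 for 11001 clones and 0.012 for 24111. The part of background in these ratios was not tested.

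Log ratios of 174 clones measured on all 4 arrays correlated at r = 0.23 between repeats 1 and 2, 0.38 between 1 and 3 and 0.16 between 2 and 3. With repeat 4 the values were -0.14, -0.17 and -0.073. These are correlations across clones that share arrays and dyes, given as a description.

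Among the large subunit clones, 51 of 89 lay above 0 and 38 below, with a median of 0.084, which turned to -0.023 when signal was required in both channels. At an unadjusted p under 0.05, 2 clones were higher and 3 lower (2.25 and 3.37%, against 3.92 and 6.46% of all clones). Those 5 clones represented Mrpl12, Mrpl15 (with a clone in each direction), Mrpl13 and Mrpl10.

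Mrpl10 and Mrpl12 together form the stalk of the large subunit, where translation factors bind. The brightest Mrpl10 clone read -0.72, -1.12, -0.33 and -0.25 on repeats 1 to 4. All 4 arrays were lower with PACAP, with a mean of -0.61 ± 0.40 (adjusted p = 0.476) and control signal on every array, and -0.18 with print-tip loess. Its other clone read 0.52, -0.69, 0.78 and -0.03, on both sides of 0. The second clone of Mrpl12, a gene outside the naming rule that was chosen after its values were seen, read 0.19, 1.52, 1.60 and 0.34. All 4 were higher, with a mean of 0.91 ± 0.75 (adjusted p = 0.454), although its control signal was above background on 1 array. The brighter Mrpl12 clone read -0.46, 0.30, 0.62 and -0.08, a mean of 0.10 ± 0.47 that did not repeat the difference.

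Mrpl13, an RNA-binding protein of the large subunit core, had 1 clone. It read -0.70, -0.29, -3.97 and -0.67, below 0 on every array and far lower on repeat 3. The mean was -1.41 ± 1.72 (adjusted p = 0.467), and it was -0.55 without repeat 3. On that array the control intensity was 1111, against 160 to 393 on the other arrays, while the PACAP intensity was 128. The spot covered 69, 77, 13 and 15 pixels on repeats 1 to 4, against a median of 111.5 for these clones, and the mean was -0.56 with spots under 60 pixels left out. With the authors' deposited ratios it was -3.01.

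Mrpl15, another core protein, had 4 clones. Its brightest clone read 0.40, 0.16, 1.20 and -0.37, and the second read 0.32, 1.61, 0.84 and 0.40, a mean of 0.79 ± 0.59 (adjusted p = 0.454). The third read 0.60, 0.18, 2.23 and -0.03. These 3 clones were higher on repeats 1 to 3. The fourth and dimmest read -0.25, -1.88, -0.82 and -0.17, lower on every array, with a mean of -0.78 ± 0.79 (adjusted p = 0.474) from spots of 51 pixels. The clones of this gene thus lay 1.57 apart, more than the SD of any of them. Each had control signal on 2 arrays.

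Mrpl58 (also Ict1) is a peptidyl-tRNA hydrolase built into the large subunit, which frees stalled peptides. It had 5 clones that split by brightness. The brightest read -0.43, -0.36, -0.05 and -0.51, the second -0.88, -0.08, -1.07 and -0.24, and the third -0.43, -0.61, -0.31 and -0.26. All 12 of those values were below 0. The fourth clone read 0.13, 0.28, 0.04 and 0.05, and the dimmest read 0.39, 0.25, 0.06 and 0.62. All 8 of those were above 0. Means were -0.34 ± 0.20, -0.57 ± 0.48 and -0.40 ± 0.15 for the first 3 and 0.13 ± 0.11 and 0.33 ± 0.23 for the others, with adjusted p between 0.49 and 0.848 in limma. The brightest clone moved to -0.0087 with median centring and 0.18 with the authors' deposited ratios.

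Mrpl50, a subunit that bacterial ribosomes lack, had 4 clones. The brightest read 0.23, 1.00, 0.37 and 0.29 and the third read 0.61, 0.04, 0.40 and 0.52, so both were higher on every array. Their means were 0.47 ± 0.36 (adjusted p = 0.52) and 0.39 ± 0.25, while the other clones averaged 0.02 and -0.04. Mrpl40, which likewise has no bacterial counterpart, read 0.56, 0.89, 0.61 and -0.09, lower on repeat 4 alone, with a mean of 0.49 ± 0.41 (adjusted p = 0.519). The Mrpl40 clone had control signal on 2 arrays.

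Mrpl37 is a further subunit particular to mitochondria. Its brighter clone read 0.46, 0.45, 2.52 and -0.14, a mean of 0.82 ± 1.16. The dimmer clone read -0.09, -0.86, -0.09 and 4.08. Control intensity was 38.4 under the 2.52 and 60.1 under the 4.08, and each clone had control signal on 2 arrays. The means of the pair, 0.82 and 0.76, lay close together, yet each rested on a different array. Without repeat 4 they became 1.14 and -0.35. Mrpl36 showed a similar single value, with 0.77, 0.77, -3.33 and 0.28 in its brighter clone.

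Mrpl23 and Mrpl17 line the region of the peptide exit, and Mrpl45 holds the ribosome at the inner membrane. The brightest Mrpl23 clone read -0.67, -0.18, -0.16 and -0.78, below 0 throughout, but the 2 other clones averaged 0.22 and 0.26. The 3 clones of Mrpl17 averaged 0.41, 0.31 and -0.06, and those of Mrpl45 averaged 0.14, -0.47 and 0.32. Neither gene had clones of 1 direction. Mrpl4, whose protein reaches into the exit tunnel, averaged 0.25, 0.22 and 0.09 over 3 clones, though the first turned to -0.022 without repeat 3.

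The other large subunit genes of several clones were mixed too. Mrpl48 clones averaged 0.49, -0.42 and 0.34, and Mrpl49 clones -0.03, 0.05, 0.37 and -0.13. Mrpl19 clones averaged -0.21, -0.19 and -0.65, all below 0, although the brightest reached 0.00013 with print-tip loess and 0.33 with the authors' deposited ratios. Mrpl57, the brightest of the group, read -0.05, 0.06, -0.14 and -0.74 in its brighter clone, and its dimmer clone averaged 0.59 ± 0.75. The dim Mrpl33 clone averaged -0.09 ± 0.60.

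Of the 4 groups, the small subunit clones had the lowest median on repeat 4. In all, 25 of 42 lay above 0 and 17 below, with a median of 0.10, which was -0.25 with the authors' deposited ratios. Their median was 0.14, 0.21 and 0.20 on repeats 1 to 3 and -0.22 on repeat 4, where 15 of 41 clones were above 0. None was higher at an unadjusted p under 0.05, and 1 was lower (2.38%), against 3.92 and 6.46% of all clones. No clone of the small subunit was below 0 on all 4 arrays, against 8.25% of all clones. Above 0 on all 4 were 5 (11.9%, against 9.59%).

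Mrps5, a core protein of the small subunit, had the brightest clone of all those examined. That clone read 0.29, 0.08, -0.54 and 0.20, a mean of 0.01 ± 0.38. Its second clone was dim (5.42nd percentile) and read -0.21, -0.99 and -2.85 on repeats 1 to 3, with no spot on repeat 4. The mean was -1.35 ± 1.35 (n = 3, adjusted p = 0.455) and -0.60 without repeat 3. Its control signal was above background on 1 array and its spots measured 63 pixels.

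Mrps15, a protein that binds ribosomal RNA, had both clones above 0 on every array. They read 0.55, 0.20, 0.47 and 0.12, and 0.15, 0.06, 1.00 and 0.03. Means were 0.34 ± 0.21 (adjusted p = 0.595) and 0.31 ± 0.46, and each had control signal on 1 array. Mrps18b, a member of a family of small subunit paralogs, read 0.10, 1.05, 0.93 and 0.01, also never below 0, with a mean of 0.52 ± 0.54 (adjusted p = 0.52) and control signal on 1 array.

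Mrps7, which binds small subunit RNA in the head of the particle, had 4 clones. The brightest read 0.01, 0.53, -1.98 and -0.24, and the other 3 averaged 0.24, 0.49 and 0.25. Its brightest clone turned from -0.42 to 0.24 when spots under 60 pixels were left out. Mrps17 resembled it, with 1.05, -3.37, 0.46 and -0.43 in the brightest clone, whose mean of -0.57 became 0.36 without repeat 2. Its other clones averaged -0.01 and -0.41.

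Mrps10 and Mrps11 had 3 clones each, within 0.19 and 0.13 of each other. Mrps10 clones averaged 0.09, -0.07 and 0.12, and Mrps11 clones 0.10, 0.23 and 0.10, the second of which carried the title of a potassium channel. Brightest clones of Mrps14 (-0.50 ± 0.50, adjusted p = 0.52) and Mrps2 (-0.53 ± 0.73, adjusted p = 0.551) had titles of a protein tyrosine phosphatase and of a zinc transporter, so their gene is uncertain. With the authors' deposited ratios the Mrps2 clone read -4.76 and passed the threshold in limma (adjusted p = 0.0263), and the brightest Mrps11 clone turned to -1.98. Mrps36, a protein since described as a subunit of the ketoglutarate dehydrogenase complex, was dim and read -1.20, 0.47, 1.54 and 0.23. Its control intensity on repeat 3 was 1, the floor, so the 1.54 rests on that floor.

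Timm clones divided almost evenly. Above 0 lay 16 of 28 and below 0 lay 12, with a median of 0.042. On repeat 1, 23 of 28 were above 0 with a median of 0.14, and on the other arrays the median was -0.027 to -0.014. At an unadjusted p under 0.05 were 1 higher clone, of Timm17a, and 1 lower clone, of Timm8b. Each was 3.57% of the Timm clones, against 3.92% higher and 6.46% lower of all clones.

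The TIM23 complex takes precursors with a presequence across the inner membrane. Of 11 clones for 5 of its genes, 8 lay above 0 and 3 below, with a median of 0.071. Timm17a, a subunit of the channel, read 0.58, 0.38, -0.09 and 0.34 in its brighter clone and 1.11, 0.93, 1.61 and -0.04 in its dimmer one. Each had 1 array just below 0. Means were 0.30 ± 0.28 and 0.90 ± 0.69 (adjusted p = 0.454), and the second was 1.22 without repeat 4; both had control signal on 2 arrays.

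Its paralog Timm17b read 0.30, -0.54, -0.02 and 0.01, and 0.14, 0.42, 0.37 and -0.11, with no common direction. Timm21, which links the complex to the TOM complex, averaged 0.47 ± 0.78 and 0.33 ± 0.78 in its clones. Timm44, the anchor of the Hsp70 import motor, averaged 0.03 and 0.07, and Timm50, the receptor of the complex, 0.04, -0.25 and -0.0032. None of these means exceeded its SD.

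Of 12 clones for 7 small Tim genes, 5 lay above 0 and 7 below, with a median of -0.084. Timm8b, the partner form that works with Timm13, read -0.41, -0.89 and -0.93 on repeats 1 to 3 in its dimmer clone, which had no value on repeat 4. All 3 values were below 0, with a mean of -0.75 ± 0.29 (n = 3, adjusted p = 0.468) and control signal on 1 array. The brighter Timm8b clone read 1.17, -0.75, 1.38 and -0.10, on both sides of 0 (mean 0.42 ± 1.02, spots of 55 pixels, and -0.68 with the authors' deposited ratios).

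Timm8a2 read -1.55, -0.02, -0.47 and -0.39, below 0 throughout (mean -0.61 ± 0.66, adjusted p = 0.502). Timm8a1 read 0.08, 0.01, 1.19 and 0.13, above 0 throughout (mean 0.35 ± 0.56). These genes are mouse paralogs of each other, and neither symbol stood in the bovine gene table, so bovine RNA on these clones cannot be split between them. Timm9, which pairs with Timm10, averaged 0.80 ± 1.23 in a clone titled as another small Tim and -0.25 ± 0.60 in the other. Timm13 clones averaged -0.25, 0.20, 0.08 and -0.13, and 2 of those 4 had the title of another small Tim. The Timm10 clone, also so titled, was not well above background in the control channel on any array, and no fold is given for it.

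Carrier proteins enter the inner membrane through the TIM22 complex. Timm22, its channel, read -0.31, -0.49, -1.97 and 0.86, a mean of -0.48 ± 1.16 that rested on repeat 3. Timm29, a subunit of animal TIM22, had 4 clones that averaged 0.40, -0.12, 0.04 and 0.32. Its brightest clone read 0.10, 1.72, -0.01 and -0.21, with a mean of -0.039 without repeat 2 and of -1.27 with the authors' deposited ratios.

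Tomm clones had the widest spread of means, from -1.91 to 1.28. Above 0 lay 13 of 21 and below 0 lay 8, with a median of 0.14, which was -0.0025 with the authors' deposited ratios. Their median stayed above 0 on each array, at 0.21, 0.43, 0.15 and 0.089. At an unadjusted p under 0.05, 4 clones were higher and 1 lower (19 and 4.76%, against 3.92 and 6.46% of all clones). Of those 5, 3 belonged to Tomm70a, and the others were a Tomm22 and a Tomm7 clone titled as another gene. The group median and these shares include all Tomm22 clones, the Tomm6 clone and the brighter Tomm7 clone, whose titles name other genes. The difference between these shares was not tested.

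Tomm70a is the receptor that takes carrier precursors from cytosolic chaperones. Its brightest clone read 0.97, 0.58, 1.38 and 0.28, above 0 on every array, with a mean of 0.80 ± 0.48 (adjusted p = 0.454). The third clone read 1.19, 0.97, 2.80 and 0.16, also above 0 throughout, with a mean of 1.28 ± 1.10 (adjusted p = 0.454). In both, repeat 4 was lowest, and without it the means were 0.98 and 1.65. The third clone had control signal above background on 1 array, and its control intensity on repeat 3 was 23.2. The fourth and dimmest clone read 0.33, 0.46, -0.43 and 0.63, a mean of 0.25 ± 0.47.

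The second Tomm70a clone went the other way. It read -1.73, -2.28 and -3.81 on repeats 1 to 3 and 0.16 on repeat 4, with a mean of -1.91 ± 1.64 (adjusted p = 0.454, with the smallest unadjusted p of these clones) and -2.60 without repeat 4. Its PACAP intensity was 256, 188, 101 and 255 and its control intensity 585, 565, 882 and 508, so the control channel was bright on every array. Its spots had a median area of 17 pixels. The brightest clone, with spots of 122 pixels, had a PACAP intensity of 643, 1554, 798 and 941 against a control intensity of 227, 380, 171 and 1760. The part of spot size in the opposite signs was not tested. The bovine gene table held this gene under a newer symbol, with Tomm70a as a synonym.

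Tomm20 and Tomm22 are the receptors for presequences. Tomm20 had 5 clones, the first of which read 0.21, 0.62, -0.51 and 0.24. The second read 0.28, 0.90, 0.56 and -0.43 and the third read 0.53, 1.21, 0.98 and -0.41. Both of these were higher on repeats 1 to 3 and lower on repeat 4, and all 3 clones had control signal on every array. The 2 dimmest clones, both below the 30th percentile in brightness, averaged -0.60 ± 0.59 (adjusted p = 0.491 in limma) and 0.02 ± 0.45. The former of these 2 also had control signal on every array. The means of the first 3 were 0.14 ± 0.47, 0.33 ± 0.57 and 0.58 ± 0.72 (adjusted p = 0.522 for the third). The first turned to -0.020 without repeat 2 and to -2.22 with the authors' deposited ratios.

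All 4 Tomm22 clones were titled as a ring finger protein, so their gene is uncertain. Their means were 0.17, -0.19, 0.79 and 0.12, and the third, at 0.49, 1.60, 0.99 and 0.08, was above 0 on every array (adjusted p = 0.455). Tomm40, the channel of the outer membrane, read -0.35, -0.41, 0.19 and 0.17 in its brighter clone and 0.21, 0.43 and 0.41 on repeats 1 to 3 in the other. The first averaged -0.10 ± 0.33 and turned to 0.47 with median centring and 1.05 with the authors' deposited ratios. The second averaged 0.35 ± 0.12 (n = 3).

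Tomm5, Tomm6 and Tomm7 are small proteins around the channel. Tomm7 read 0.73, 1.52, 0.98 and -0.15 in its brighter clone, a mean of 0.77 ± 0.70 (adjusted p = 0.467), but that clone had the title of a cyclin-dependent kinase inhibitor. The dimmer Tomm7 clone, with no such conflict, read -0.06, -0.46, -0.16 and -0.78, below 0 on every array. Tomm6, whose clone was titled a ubiquitin specific protease, averaged 0.35 ± 0.55, and Tomm5 -0.11 ± 0.33. Tomm34, a cytosolic co-chaperone despite its name, averaged -0.01 and -0.28.

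**Figure D2:**
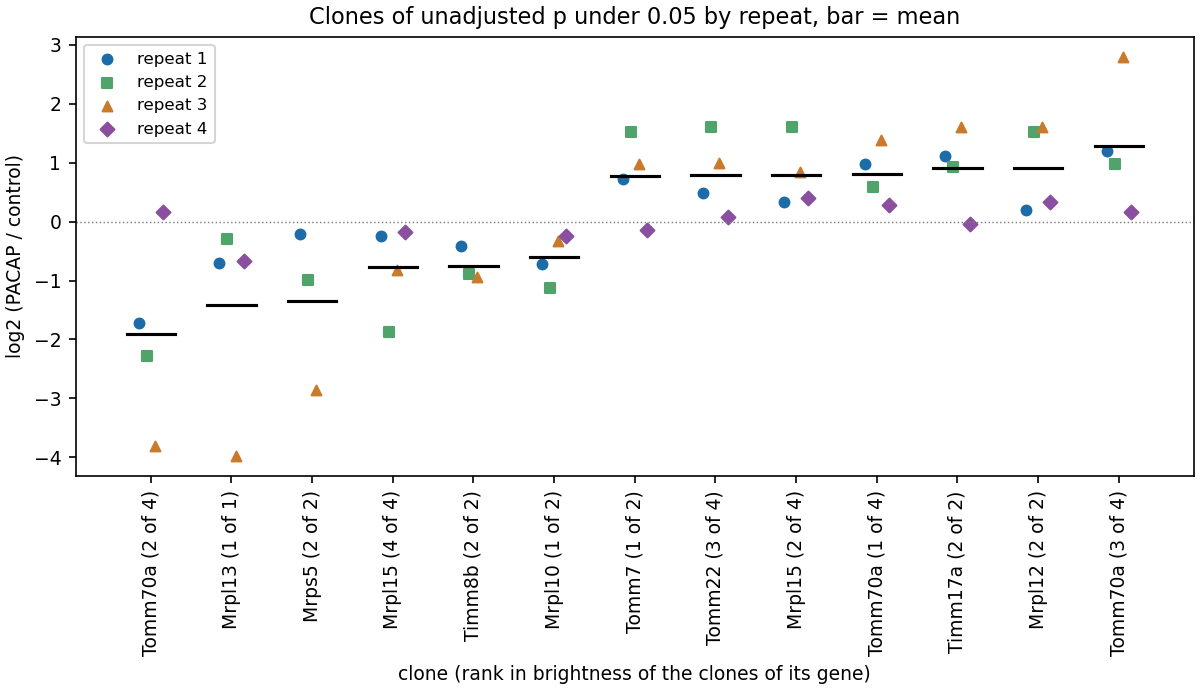
The 13 clones of unadjusted limma p under 0.05 are shown with log2(PACAP / control) on each array as points and the mean as a bar; the numbers in brackets give each clone's rank in brightness among the clones of its gene. Repeat 4 lies nearest to 0 or beyond it in most clones, and Tomm70a and Mrpl15 appear on both sides of 0.

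Of these 13 clones, 6 lower clones had a median spot area of 57 pixels and 7 higher clones one of 120.5 pixels. With spots under 60 pixels left out, 8 of 175 clones were higher and 6 lower at an unadjusted p under 0.05, against 4.55 and 6.86% of all clones in that fit. With each array that gave a value left out in turn, the third and the second Tomm70a clones kept an unadjusted p under 0.05 in 4 of 4 fits and Mrpl13 in 3 of 4. The Timm8b clone kept it in 0 of 3 fits, the Mrps5 clone in 1 of 3, and the other 8 clones in 1 or 2 of 4. The third Tomm70a clone had control signal above background on 1 array. Spots of the second Tomm70a clone covered 15 to 20 pixels, and the Mrpl13 spot covered 13 and 15 on repeats 3 and 4.

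Different clones of a gene often disagreed. Of 55 genes with at least 2 tested clones, 22 had all clones on the same side of 0, 16 above and 6 below. Among 35 genes with exactly 2 clones, 18 pairs shared a sign (51.4%), against 54% of 3324 such pairs in the library. Clones of a gene lay a median of 0.45 apart, against 0.52 over 5933 library genes. In 16 of the 55 genes the clones lay further apart than the largest SD among them, and the widest were Tomm70a (3.19), Mrpl15 (1.57) and Mrps5 (1.36). The closest pairs were Mrps28 (0.33 and 0.34), Mrps15 (0.31 and 0.34) and Timm44.

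**Figure D3:**
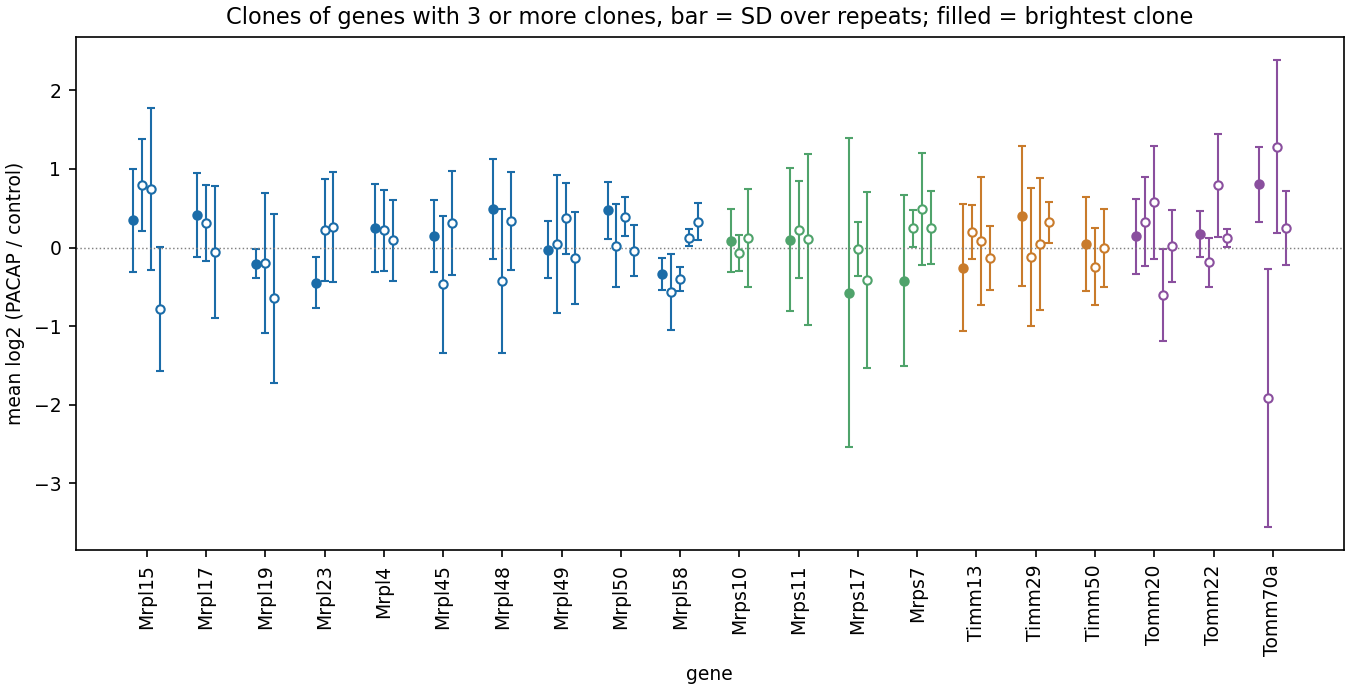
Every tested clone of the genes with 3 or more tested clones is shown as its mean log2(PACAP / control) with the SD over arrays, filled for the brightest clone of each gene. Tomm70a spans from -1.91 to 1.28, and the 5 Mrpl58 clones split into 3 below and 2 above 0.

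Of the 181 clones, 9 had a title of another gene and 4 a title of another small Tim. Without the 9, 99 of 171 clones lay above 0 and 72 below, with a median of 0.08. At an unadjusted p under 0.05, 5 were higher and 6 lower (2.92 and 3.51%, against 3.92 and 6.46% of all clones).

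Clones of cytosolic ribosomal proteins (Rpl, Rps) had medians of 0.38, 0.31, -0.25 and -0.51 on repeats 1 to 4, where the mitochondrial ribosome and import clones had 0.14, 0.14, 0.15 and -0.085. Respiratory chain and ATP synthase clones had 0.042, 0.16, 0.12 and -0.22, the same signs as the latter on each array. Over the means, cytosolic ribosomal clones had a median of -0.042, with 6 higher and 12 lower of 191 at an unadjusted p under 0.05 (3.14 and 6.28%). Respiratory clones had a median of 0.0078, with 5 and 5 of 182 (2.75% each way). Over all clones the shares were 3.92 and 6.46%. The median of the cytosolic ribosomal clones moved from -1.96 to 0.53 between settings, and that of the mitochondrial clones from 0.023 to 0.15. No test of these differences was made.

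**Figure D4:**
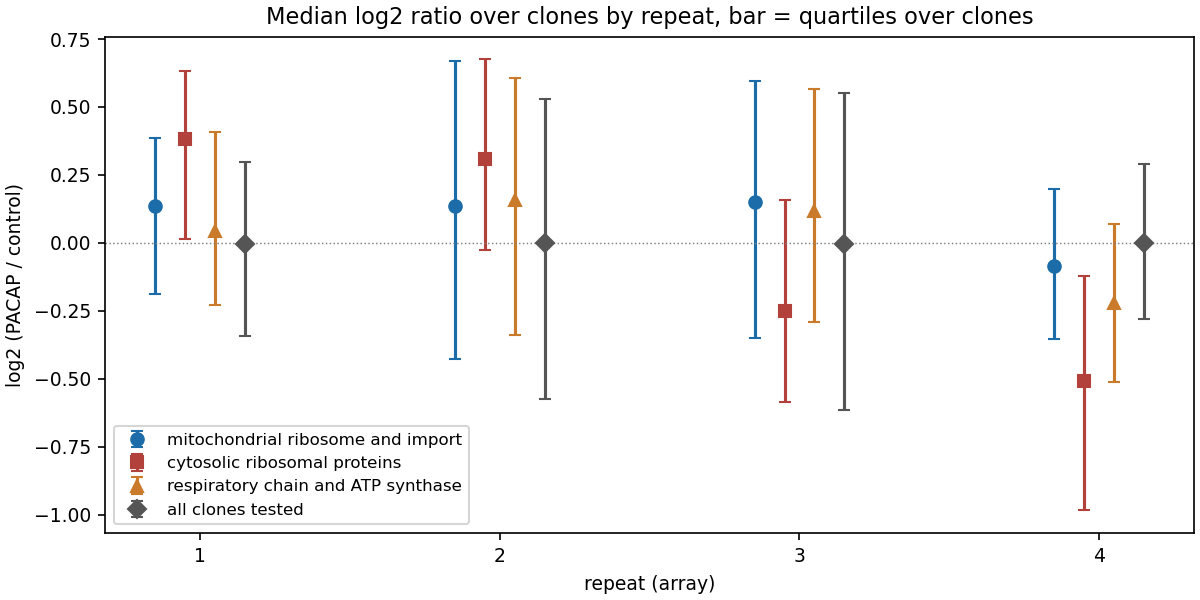
Points are medians of log2(PACAP / control) over clones on each array for the mitochondrial ribosome and import clones, 2 related groups and all tested clones, and bars span the quartiles of the clones. The mitochondrial clones lie near 0.14 on repeats 1 to 3 and at -0.085 on repeat 4, and the cytosolic ribosomal clones lie between 0.38 and -0.51.

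Genes that work beside these proteins were counted by their brightest clone. The reference for every list is all tested clones, of which 48.6% lay above 0. At an unadjusted p under 0.05, 3.92% of all tested clones were higher and 6.46% lower. Of 20 mitochondrial translation factors and tRNA synthetases, 13 lay above 0 and 7 below, with a median of 0.07 and 1 higher at an unadjusted p under 0.05. That gene was Tars2, which charges threonine tRNA, at 0.13, 1.10, 1.30 and 0.80 (mean 0.83 ± 0.51, adjusted p = 0.454). Rars2, for arginine, averaged 0.48 ± 0.39, also above 0 on every array, with control signal on 2 arrays. Of 12 ribosomal proteins under other symbols and assembly factors, 5 lay above 0 and 7 below, with a median of -0.18. Ddx28, a helicase in large subunit assembly, read -0.70, -0.92, -0.71 and -0.22 (mean -0.64 ± 0.30, adjusted p = 0.458), below 0 on every array. Dap3, a small subunit protein, averaged 0.84 ± 1.07, with control signal on 2 arrays. Rars2 and Dap3 each had another clone that is not given here.

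Of 18 other import, processing and folding proteins, 13 lay above 0 and 5 below, with a median of 0.16, 2 higher and 1 lower at an unadjusted p under 0.05. Dnajc19, a co-chaperone of the import motor, read -1.38, -0.75, -1.22 and 0.0036, low on repeats 1 to 3 (mean -0.84 ± 0.62, adjusted p = 0.454). Immp1l, an inner membrane peptidase subunit, read 0.51, 0.96, 0.53 and 0.27, all above 0 (mean 0.57 ± 0.28, adjusted p = 0.478). That clone had control signal on 2 arrays, and the other clone of the gene is not given here. Of 15 genes for mitochondrial DNA, its transcription and biogenesis, 11 lay above 0 and 4 below, with a median of 0.11. None of them had a p under 0.05, and the smallest were for Ssbp1, the DNA-binding protein of the replication fork (0.67 ± 0.62), and Polg2, the accessory polymerase subunit (0.65 ± 0.73). The Polg2 clone had control signal on 2 arrays. None of the 4 lists held a clone that passed adjustment.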

How the data were processed

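RNA of PACAP-treated (Cy5) and control (Cy3) bovine chromaffin cells was compared on 4 arrays. Per the file headers, the deposited scanner tables give linear intensity and its local background per spot, the spot area in pixels (an other measure) and a calibration ratio per array; the values show that the deposited mean was already less background. The image program is not stated here. The authors' deposited table holds log2 ratios; recomputation from the intensities showed PACAP over control, a second background subtraction with a floor of 1, division by the calibration ratio and no centring (medians 4.67, 5.51, 4.25 and -0.38). It was joined to spots by plate position (35825 of 35873 entries; 92.2% lay within 0.1 log2 units of the recomputed value on all 4 arrays), and gene symbols came from the platform annotation through this join.

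Intensities were floored at 1, log2(Cy5 / Cy3) was normalised by global loess within each array, spots of no area were left out, spots of a clone were averaged, and the mean was tested against 0 with limma 3.58.1 (lmFit and eBayes, 2-sided, R 4.3.3) with Benjamini-Hochberg adjustment over all 35112 tested clones. All p-values, adjusted or not, are from that fit. The procedure was also run on simulated log ratios with independent noise, alike on every array. The arrays here were not alike, so that run does not show how the procedure performs on them. Only 4 arrays limit the precision. Named genes were, by role, the 4 of smallest p by their brightest clone, the brightest, the dimmest, those with 3 or more clones, and 14 import genes listed by name (a 15th, Timm23, had no clone with 1 symbol). Members and lists were chosen with earlier results of these data known. Normalization, offset, filters, spot size, variance moderation and single arrays were varied. Mouse symbols were looked up in the bovine RefSeq table: 90 of 93 matched. No sequences were used here.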

Additional observations from a re-analysis of the deposited data

Results flagged for a closer look

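Among 59 groups of 4 array values that were examined, 9 had 1 array far from the other 3. For independent groups of continuous values, chance flags about 1 in 20. These groups overlap, and shares that tie on 3 arrays are flagged by any difference on the other. The 9 can therefore not be set against that rate. The median of all the ribosome and import clones was -0.0853 on repeat 4, against 0.136 to 0.15 on the others. The median of the Timm clones was 0.144 on repeat 1, against -0.0271 to -0.0143. The brightest Timm29 clone read 1.72 on repeat 2, against -0.21 to 0.102 on the others. The Mrpl13 clone read -3.97 on repeat 3, against -0.705 to -0.289, and the Timm8a1 clone read 1.19 on repeat 3, against 0.00912 to 0.134.

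The other 4 concerned the share of clones with PACAP signal over 2 background SD. It was 95.6% of all the clones on repeat 4, against 98.9 to 99.4%. Among Timm clones it was 89.3% on repeat 4 and among Tomm clones 95.2%, against 100% on the other arrays. Among Mrpl clones it was 97.8% on repeat 1, against 98.9%, a difference of 1 clone.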

How the results depend on the processing

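The count of called clones was 0 in the library and among these clones in 12 of 13 alternatives; with the authors' deposited log2 ratios, median-centred, 371 library clones and 1 of these clones passed, Mrps2 (-4.76, adjusted p = 0.0263 in limma, titled as a zinc transporter). That setting moved the median of all clones from -0.014 to -0.28, and the median here was 0.078. The median of these clones stayed above 0 in all 13 alternatives (0.023 with signal in both channels to 0.15 without repeat 4) and between 0.062 and 0.15 with 1 array left out. Among 44 named genes with control signal, 507 of 554 alternative values kept their sign and 47 did not, and 20 genes had no reversal. Dropping the signal filter or changing the variance moderation left the log ratios as they were, so median and signs could not change there. Requiring signal in both channels only removed clones, so the signs of those kept could not change either. These values are part of the 507. Reversed values were, with print-tip loess, Mrpl19 0.00013, Mrpl33 0.047, Mrps10 -0.074, Timm17b 0.14 and Timm50 -0.11. With median centring they were Mrpl49 0.058, Mrpl57 0.33, Mrps11 -0.091, Timm17b 0.16 and Tomm40 0.47, and with scaling between arrays Mrps11 -0.019 and Timm50 -0.073. With the deposited ratios they were Mrpl19 0.33, Mrpl45 -0.017, Mrpl48 -0.14, Mrpl49 0.33, Mrpl58 0.18, Mrps11 -1.98, Mrps5 -0.26, Timm29 -1.27, Timm8b -0.68, Timm9 -0.10, Tomm20 -2.22 and Tomm40 1.05. Without spots under 60 pixels it was Mrps7 0.24. With 1 array left out, values ran from -0.38 to 0.062 for Mrpl33, -0.022 to 0.40 for Mrpl4, -0.015 to 0.30 for Mrpl45, -0.16 to 0.13 for Mrpl49, -0.089 to 0.19 for Mrps10 and -0.27 to 0.43 for Mrps11. They ran from -1.12 to 0.36 for Mrps17, -0.17 to 0.75 for Mrps36, -0.088 to 0.19 for Mrps5, -0.74 to 0.10 for Mrps7, -0.51 to 0.079 for Timm13 and -0.18 to 0.098 for Timm17b. They ran from -0.92 to 0.021 for Timm22, -0.039 to 0.60 for Timm29, -0.077 to 0.087 for Timm44, -0.20 to 0.29 for Timm50, -0.020 to 0.36 for Tomm20 and -0.19 to 0.0072 for Tomm40. The cause of these changes was not tested. Treated and control RNA of a repeat share an array, so pairing is already in each ratio and no further pairing was made. Low control signal on repeats 2 and 3 and the number of arrays limit the precision.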
